A study of Rattus norvegicus with 18 samples.

Results

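Esr1, Esr2, Pgr, Nrip1, Esrra, Esrrg and Gper1 are the genes of estrogen receptors, of their relatives, and of well-known partners or targets. They were followed in rat hippocampal neurons exposed to 4-hydroxytamoxifen (4OHT), an active metabolite of tamoxifen that binds estrogen receptors. Every probe set annotated to 1 of these 7 symbols was taken, which gave 8 probe sets of 31042 on the array, 2 of them for Esrrg and 1 for each other gene. The study measured RNA of dissociated neurons on 18 Affymetrix arrays, and 4OHT served there to switch on an introduced fusion protein. The question asked here was whether the ligand was followed by changes in the cells' own receptor genes or in genes that respond to those receptors, and whether the Esr1 probe set differed between neurons carrying different fusions.

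All neurons were transduced with a lentivirus on day 3 in vitro and received 4OHT on day 10 for 0, 1 or 2.5 h. One virus expressed MEF2-VP16-ER, in which the transcription factor MEF2 is joined to the VP16 activation domain and, per the name, to a part of an estrogen receptor. The control virus expressed MEF2deltaDBD-VP16-ER, whose name marks the loss of the part that binds DNA. Construct and time make 6 groups with 3 biological replicates each, per the labels, which do not say whether these were separate cultures or animals. P-values therefore measure the spread between these samples. Both fusions carry the estrogen receptor part, so all 6 groups share it. Neurons without a virus and neurons given vehicle were not analysed here, so time in the experiment and 4OHT cannot be told apart. Whether the Esr1 probes match the receptor part of the fusions was not tested, since the files used here give no probe sequences and the labels name neither the receptor nor the species it came from.

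Estrogen receptors alpha and beta are nuclear receptors that bind DNA once a ligand has entered the cell, and 4OHT can block or activate them depending on the cell and the target gene. The hippocampus is known to contain both receptors, and estradiol affects its dendritic spines and plasticity. The estrogen-related receptors share the DNA-binding fold but are orphan receptors without a known estrogen ligand, and 4OHT can bind ERR gamma and dampen its activity.

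Promoters of 6 of the 7 genes were found in a RefSeq table of the rat build GRCr8, in 9 windows of 300 bases, 4 of them for Esrrg. Promoters are shown for the 2 probe sets that were higher with MEF2-VP16-ER in every matched pair of arrays, Esr1 and Nrip1, and for Esr2, one of the genes with a receptor half-site in its window. Each sequence gives the 250 bases before the annotated start, on the gene's strand, with capitals for the half-site GGTCA in Esr2 and for the GC box GGGCGG or its complement in Nrip1. The Esr1 sequence holds no match to any motif searched. They lie at chr1:43641845-43642094 (plus strand), chr6:100644710-100644959 (minus strand) and chr11:28466413-28466662 (minus strand).
Esr1: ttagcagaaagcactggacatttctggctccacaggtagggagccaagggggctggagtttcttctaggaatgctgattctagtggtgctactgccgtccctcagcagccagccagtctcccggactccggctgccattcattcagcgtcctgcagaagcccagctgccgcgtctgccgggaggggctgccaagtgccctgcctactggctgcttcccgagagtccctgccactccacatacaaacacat
Esr2: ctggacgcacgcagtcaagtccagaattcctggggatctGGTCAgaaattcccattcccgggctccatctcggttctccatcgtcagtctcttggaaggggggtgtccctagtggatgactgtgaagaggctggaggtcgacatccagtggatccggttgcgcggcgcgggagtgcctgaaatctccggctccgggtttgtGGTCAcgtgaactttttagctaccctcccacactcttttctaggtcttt
Nrip1: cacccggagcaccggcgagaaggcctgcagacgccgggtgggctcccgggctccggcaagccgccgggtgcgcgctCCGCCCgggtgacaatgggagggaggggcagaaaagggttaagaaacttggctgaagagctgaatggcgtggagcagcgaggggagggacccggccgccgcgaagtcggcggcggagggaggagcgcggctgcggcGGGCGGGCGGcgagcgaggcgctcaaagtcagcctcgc

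The full estrogen response element, GGTCA and TGACC with any 3 bases between them, was searched on both strands and was present in 0.0269% of 33469 windows and in 0 of the 9. Its half-site GGTCA, which lies within that element, was present in 40.5% of all windows and in 2 of the 9. In Esr2 the half-sites started 211 and 49 bases before the annotated start (positions -211 and -49), and the other was in an Esrrg window at -135. The extended half-site of the estrogen-related receptors, TNAAGGTCA, which also contains GGTCA, was in 1.2% of windows and in 0 of the 9. The AP-1 site TGANTCA (7.33% of windows) and the MEF2 site (3.29%) were likewise in 0 of the 9. The GC box was in 33.1% of windows and in 5 of the 9, among them Nrip1, where boxes at -38 and -34 overlap and another lies at -174. These matches describe letters in the windows and nothing about binding.

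Intensities below are the deposited linear values, array medians ranged from 190.4 to 197.0, and the median probe set had a mean of 197. Differences are of log2(intensity + 16), a scale that understates changes of dim probe sets. The words rose, fell and changed are kept for probe sets with a limma adjusted p under 0.05, with the adjustment made across the 31042 tested. All 7 neuronal markers measured were above the median probe set (medians 1184 to 17876), as were 5 of 5 astrocyte markers (317 to 10626). Of the other lists, 2 of 5 microglial, 1 of 3 oligodendrocyte, 2 of 4 fibroblast and mural and 0 of 4 endothelial markers were above it. In such bulk RNA, fewer cells of a type and less RNA per cell cannot be told apart.

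The 8 probe sets lay at very different places in the range of intensities. By mean intensity Nrip1 was at percentile 83.7 of all probe sets, Esrra at 64.1, Esr1 at 59.3, and the Esrrg probe sets at 48.8 (1394577_at) and 38.1 (1381445_at). Gper1, Pgr and Esr2 were among the dimmest, at 22.3, 12.7 and 8.93. No detection calls were used, so a level this low does not show whether Esr2 or Pgr RNA was present. Across the 18 arrays the log2 values of Nrip1 spanned 0.89, Esrrg 1394577_at 0.73, Esr1 0.65, Pgr 0.36, Gper1 0.32, Esrrg 1381445_at 0.31, Esrra 0.29 and Esr2 0.24. The arrays' replicate number took a larger share of the variation than construct or time for 5 of the 8: 43.7% of the sum of squares for Nrip1, 38.2% and 37.1% for the Esrrg probe sets, 37.7% for Esr1 and 28.5% for Esrra. Construct took 32.8% for Esr1 and 32.3% for Nrip1, against 5.48% and 10.8% for time. Replicate number and time have more levels than construct, and these shares are not per degree of freedom, so they do not rank the factors.

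**Figure D1:**
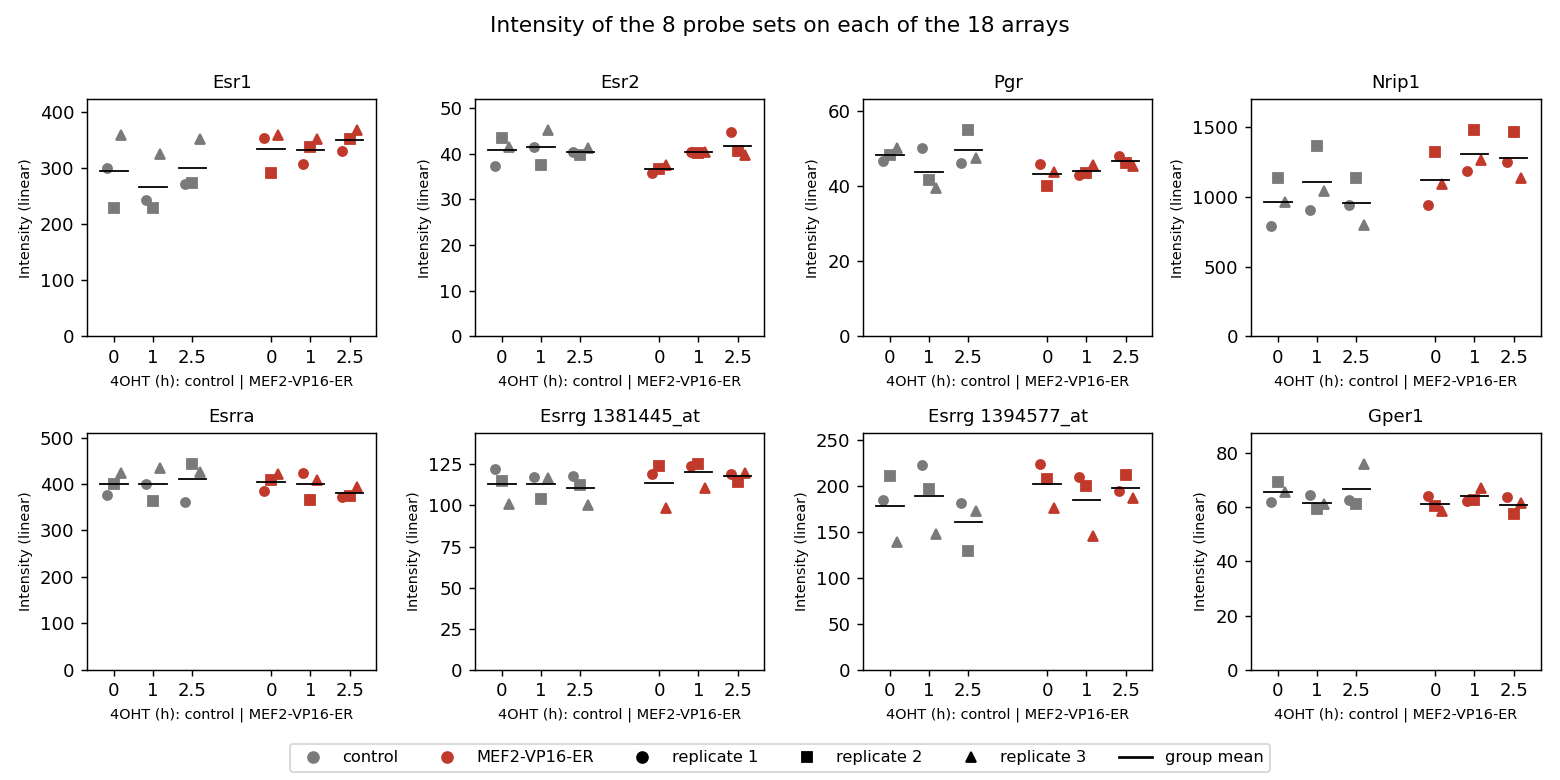
Intensity (linear axis) of each of the 8 probe sets on the 18 arrays by construct and hours of 4OHT, with symbols for replicate numbers, colours for constructs and horizontal lines for group means. Esr1 and Nrip1 lay higher with MEF2-VP16-ER in each same-numbered pair, and the groups of the other probe sets largely overlapped.

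In control neurons, none of the 8 probe sets changed after 4OHT. At 1 h limma called 0 of 8, and 0% of all probe sets. At unadjusted p under 0.05 it marked 0 of 8, against 2.71% of all probe sets. At 2.5 h the count was again 0 of 8 (0% of all), with 0 of 8 against 2.15% at unadjusted p under 0.05. With the replicate number added to the fit as a block, 1 of 8 was marked at 1 h, Nrip1, against 4.4% of all. At 2.5 h the block marked 0 of 8, against 4.27%, and it called 0 of 8 at either time. The 3 arrays of 1 h and of 0 h overlapped for all 8, where 7.07% of all probe sets did not overlap, and those of 2.5 h and 0 h overlapped for all 8, where the share was 6.15%. The limit on size differed by gene: the 95% intervals of the 2.5 h difference ran from -0.13 to 0.11 for Esr2 but from -0.29 to 0.35 for Esr1. With the replicate block the Esr1 interval was narrower, at -0.18 to 0.24.

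**Figure D2:**
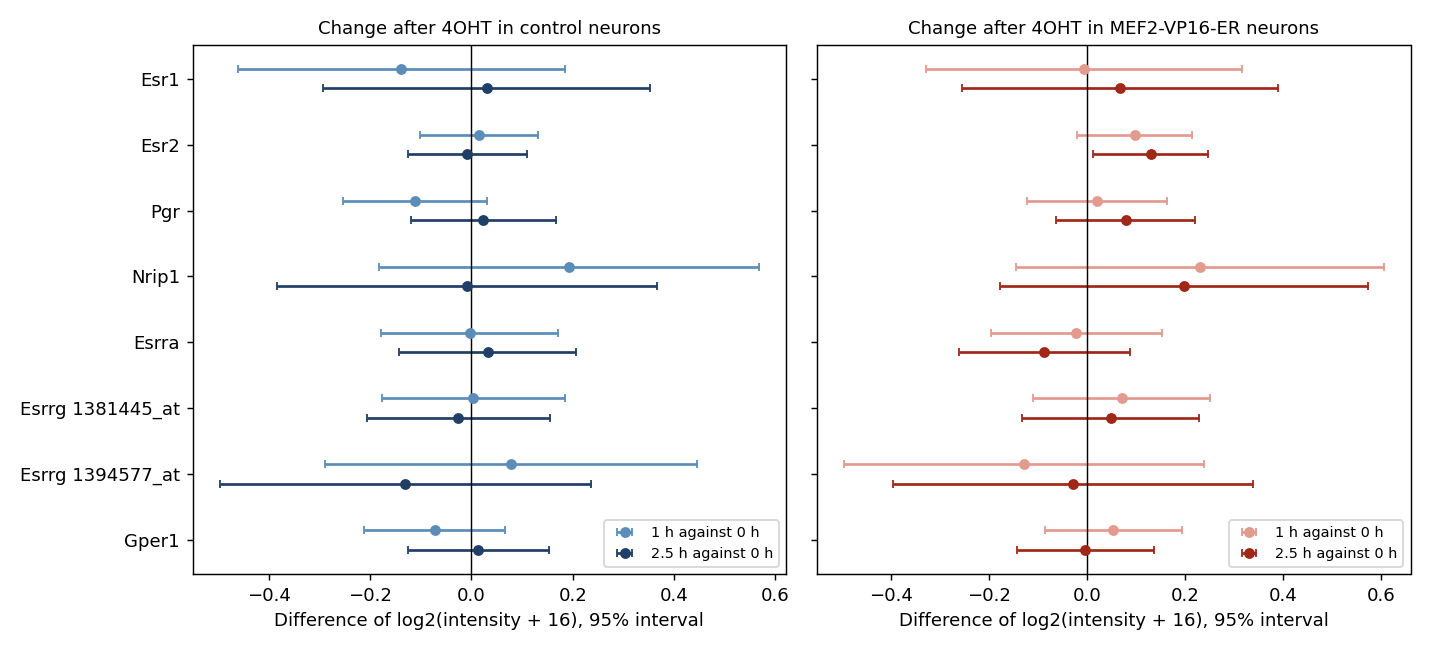
Difference of log2(intensity + 16) between 1 h or 2.5 h and 0 h of 4OHT, with its 95% interval from limma without a replicate block, in control neurons (left) and MEF2-VP16-ER neurons (right). In control neurons every interval holds 0, and in MEF2-VP16-ER neurons only that of Esr2 at 2.5 h does not.

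Esr1, the gene of estrogen receptor alpha, measured 299.7, 228.2 and 358.9 in control neurons at 0 h (replicates 1, 2 and 3). At 1 h it measured 243.6, 229.2 and 324.7, and at 2.5 h 272.3, 273.6 and 352.9. Replicate 3 was the highest at each time, and the 3 times overlapped. The 1 h difference was -0.14 ± 0.15 log2 units (SE, 3 arrays a group; 95% interval -0.46 to 0.18) and the 2.5 h difference 0.03 ± 0.15, both with limma adjusted p = 1.00.

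Esr2, the gene of estrogen receptor beta, measured 37.3, 43.5 and 41.4 at 0 h in control neurons. Its values were 41.4, 37.6 and 45.2 at 1 h and 40.3, 39.7 and 41.2 at 2.5 h. These ranges overlapped, with differences of 0.02 ± 0.06 and -0.01 ± 0.06. Gper1 encodes a membrane receptor of the G-protein coupled class that responds to estrogens. It measured 61.8, 69.3 and 65.6 at 0 h, 64.5, 59.2 and 61.0 at 1 h and 62.6, 61.1 and 76.0 at 2.5 h, again overlapping (differences of -0.07 ± 0.07 and 0.01 ± 0.07).

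Esrra encodes ERR alpha, a regulator of mitochondrial and oxidative genes. In control neurons it measured 376.1, 399.6 and 422.7 at 0 h, 399.0, 364.1 and 434.2 at 1 h, and 360.7, 443.9 and 425.3 at 2.5 h. The spread within each time was larger than the differences between times, which were -0.003 ± 0.08 and 0.03 ± 0.08. Esrrg, the gene of ERR gamma, had 2 probe sets that moved together only loosely: Pearson r was 0.45 over the 18 arrays and 0.12 once the mean of each replicate number was subtracted, as a description. The dimmer one, 1381445_at, lay between 100.4 and 122.1 in the 9 control arrays, with differences of 0.003 ± 0.08 and -0.03 ± 0.08. The brighter one, 1394577_at, measured 185.0, 211.2 and 139.3 at 0 h, 223.3, 197.0 and 147.7 at 1 h, and 181.6, 129.3 and 172.5 at 2.5 h. Those times overlapped, with differences of 0.08 ± 0.17 and -0.13 ± 0.17 (95% interval -0.50 to 0.24 at 2.5 h).

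Pgr, the progesterone receptor gene and a textbook estrogen target in reproductive tissue and parts of the brain, measured 46.5, 48.3 and 49.97 in control neurons at 0 h. It measured 50.03, 41.7 and 39.3 at 1 h and 46.0, 54.8 and 47.5 at 2.5 h. Replicates 2 and 3 were lower at 1 h and replicate 1 was not. The 1 h difference was -0.11 ± 0.07 (limma adjusted p = 1.00), and at 2.5 h it was 0.02 ± 0.07. Nrip1 encodes RIP140, a coregulator that binds liganded nuclear receptors and is itself an early estrogen target in breast cancer cells. It measured 791.6, 1132 and 960.0 at 0 h in control neurons, 906.6, 1364 and 1044 at 1 h and 937.7, 1132 and 796.7 at 2.5 h. Each 1 h array was above the 0 h array of its number, by 0.19, 0.27 and 0.12 log2 units, but the groups overlapped (0.19 ± 0.18, adjusted p = 1.00). At 2.5 h the same-numbered differences were 0.24, 0.00 and -0.26, and their mean was -0.01 ± 0.18.

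In MEF2-VP16-ER neurons 4OHT was likewise followed by 0 called changes of 8, at 1 h (0.0354% of all probe sets called) and at 2.5 h (0.789% called). At unadjusted p under 0.05 limma marked 0 of 8 at 1 h, against 4.17% of all probe sets. At 2.5 h it marked 1 of 8, Esr2, against 6.18%. With the replicate block it marked 1 of 8 at 1 h, Nrip1, against 8.38%. The block marked 2 of 8 at 2.5 h, Esr2 and Nrip1, against 10.7%. Esr2 was also the one probe set of the 8 whose groups did not overlap at 1 h (9.84% of all probe sets) and at 2.5 h (11.3%). It measured 35.9, 36.6 and 37.6 at 0 h, 40.4, 40.2 and 40.3 at 1 h, and 44.7, 40.6 and 39.7 at 2.5 h. The 0 h arrays were thus the low ones. The differences were 0.10 ± 0.06 at 1 h and 0.13 ± 0.06 at 2.5 h (95% interval 0.01 to 0.25, limma adjusted p = 0.674). The control neurons at 0 h, at 37.3 to 43.5, overlapped the later MEF2-VP16-ER arrays.

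Nrip1 in MEF2-VP16-ER neurons measured 940.9, 1323 and 1093 at 0 h, 1182, 1477 and 1265 at 1 h and 1248, 1462 and 1132 at 2.5 h. The groups overlapped, and the differences were 0.23 ± 0.18 and 0.20 ± 0.18 (limma adjusted p = 1.00 for both). With the replicate block the 2.5 h difference was 0.20 ± 0.08 (95% interval 0.02 to 0.38, limma adjusted p = 0.380). Pooling both constructs gave 0.21 ± 0.12 at 1 h (95% interval -0.05 to 0.48, limma adjusted p = 1.00). With the replicate block, an alternative here since this comparison was not treated as paired, it was 0.21 ± 0.06 (0.08 to 0.34, limma adjusted p = 0.890). In 6 of 6 pairs of the same construct and replicate number the 1 h array was the higher, a pattern seen in 1.11% of all probe sets and in 1 of these 8. These 6 pairs share 3 replicate numbers. Over both constructs limma called 0 of 8 at 1 h (0% of all probe sets called) and 0 of 8 at 2.5 h (0.238% called). At unadjusted p under 0.05 it marked 0 of 8 at either time, against 1.98% and 4.02% of all. With the block it marked 1 of 8 at 1 h, Nrip1, against 4.01%, and 0 of 8 at 2.5 h, against 7.51%.

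For the other members in MEF2-VP16-ER neurons the 3 times overlapped. Esr1 measured 353.3, 291.2 and 359.3 at 0 h, 307.7, 337.6 and 351.6 at 1 h and 331.2, 351.5 and 367.8 at 2.5 h, with differences of -0.01 ± 0.15 and 0.07 ± 0.15. Pgr lay between 40.03 and 48.0 over the 9 arrays and Gper1 between 57.5 and 66.9. Esrra lay between 365.7 and 423.9, and its 2.5 h difference was -0.09 ± 0.08. The Esrrg probe sets lay between 98.2 and 125.4 (1381445_at) and between 145.4 and 224.4 (1394577_at), with 2.5 h differences of 0.05 ± 0.08 and -0.03 ± 0.17.

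The difference between constructs in the change from 0 h, MEF2-VP16-ER less control, is called the induction here and tests whether the fusion that can bind DNA altered the response. None of the 8 changed in this comparison at 1 h (limma called 0.00322% of all probe sets) or at 2.5 h (0.177%). At unadjusted p under 0.05 the count was 0 of 8 at both times, against 4.7% and 4.78% of all. At 2.5 h the induction of Nrip1 was 0.21 ± 0.25 (95% interval -0.32 to 0.74), that of Esr1 0.04 ± 0.21 (-0.42 to 0.49) and that of Esr2 0.14 ± 0.08 (limma adjusted p = 1.00). Esrra was at -0.12 ± 0.12.

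The comparison of constructs bears on whether the Esr1 probe set differed between the fusions. Before ligand, at 0 h, limma called 0 of 8 (0% of all probe sets called) and marked 0 of 8 at unadjusted p under 0.05, against 8.81% of all. Esr1 averaged 335 ± 37.7 (SD, n = 3) with MEF2-VP16-ER and 296 ± 65.4 in control neurons, a difference of 0.19 ± 0.15 (SE, limma adjusted p = 0.758) with overlapping groups. Nrip1 averaged 1119 ± 192 against 961 ± 170.2 (0.22 ± 0.18, adjusted p = 0.757). Pgr was the one probe set whose groups did not overlap at 0 h (17.4% of all probe sets did not), at 45.9, 40.03 and 43.7 with MEF2-VP16-ER against 46.5, 48.3 and 49.97, and its difference of -0.12 ± 0.07 was not called (limma adjusted p = 0.643).

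Over all times Esr1 was higher with MEF2-VP16-ER than with the control virus on each of 9 pairs of arrays with the same time and replicate number, and so was Nrip1. Such a pattern was seen in 2.1% of all probe sets and in 2 of these 8. The 9 pairs are 3 replicate numbers at 3 times and not 9 independent pairs, and the fit without the block likewise takes the arrays as independent. For Esr1 the pair of replicate 3 at 0 h was nearly equal, at 359.3 with MEF2-VP16-ER and 358.9 in control neurons. The same-numbered Esr1 differences were 0.23, 0.33 and 0.00 at 0 h, 0.32, 0.53 and 0.11 at 1 h and 0.27, 0.34 and 0.06 at 2.5 h (replicates 1, 2 and 3), so they were small in replicate 3, where the control arrays were already high. Esr1 averaged 339 ± 25.2 (SD over 9 arrays of 3 replicate numbers) with MEF2-VP16-ER, with a range of 291 to 368. In control neurons it averaged 287 ± 50.2, with a range of 228 to 359. Its mean difference was 0.24 ± 0.09 log2 units (95% interval 0.06 to 0.43, fold 1.18), which did not pass over all probe sets (limma adjusted p = 0.266).

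For Nrip1 the same-numbered differences were 0.24, 0.22 and 0.18 at 0 h, 0.38, 0.11 and 0.27 at 1 h and 0.41, 0.36 and 0.50 at 2.5 h. They were positive in all 3 replicates at each time. The mean over time was 0.30 ± 0.10 (95% interval 0.08 to 0.51, fold 1.23, limma adjusted p = 0.237), from 1236 ± 173 (SD over 9 arrays of 3 replicate numbers) against 1007 ± 183.1. Over all times limma called 0 of 8, where it called 0.718% of all probe sets. At unadjusted p under 0.05 it marked 2 of 8, Esr1 and Nrip1, against 12.2%. The pairing of replicate numbers failed its check between 2 of the 6 groups, MEF2-VP16-ER at 0 h and at 1 h, although the 9 same-time pairs compared here all had r above 0.1 (lowest 0.28). With the replicate number as a block, given here as an alternative, limma called 2 of 8, Esr1 (adjusted p = 0.0245) and Nrip1 (adjusted p = 0.00233), against 3.83% of all probe sets. Esr1 lost that call in all 3 fits without a replicate number and in 5 of 18 fits without 1 array, and Nrip1 in 1 of 3 and 0 of 18.

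At single times after ligand the constructs were compared as well, a comparison added after the values were seen. At 1 h limma called 0 of 8 (0.0612% of all), marked 0 of 8 at unadjusted p under 0.05 (2.73% of all), and no probe set of the 8 had groups apart (6.49% of all). Esr1 then differed by 0.32 ± 0.15 (adjusted p = 1.00) and Nrip1 by 0.25 ± 0.18. At 2.5 h limma called 0 of 8 (1.28% of all) and marked 1 of 8 at unadjusted p under 0.05, Nrip1 (8.65% of all). The groups did not overlap for 2 of 8, Nrip1 and Esrrg 1394577_at, against 12.5% of all probe sets, and both were higher with MEF2-VP16-ER. Nrip1 there averaged 1281 ± 167 (SD, n = 3) against 955 ± 168, with its highest control array and lowest MEF2-VP16-ER array both at 1132. Its difference was 0.42 ± 0.18 (95% interval 0.05 to 0.80, fold 1.34, limma adjusted p = 0.487). With the replicate number as a block this difference between constructs was 0.42 ± 0.08 (limma adjusted p = 0.00806), 1 of 8 called against 3.49% of all probe sets. It no longer passed when control 2.5 h replicate 3 was left out (adjusted p = 0.0558), nor without any array of replicate 2 (adjusted p = 0.134) or of replicate 3 (adjusted p = 0.0972). Esrrg 1394577_at differed by 0.28 ± 0.17 (adjusted p = 0.741), while the other Esrrg probe set differed by 0.08 ± 0.08.

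**Figure D3:**
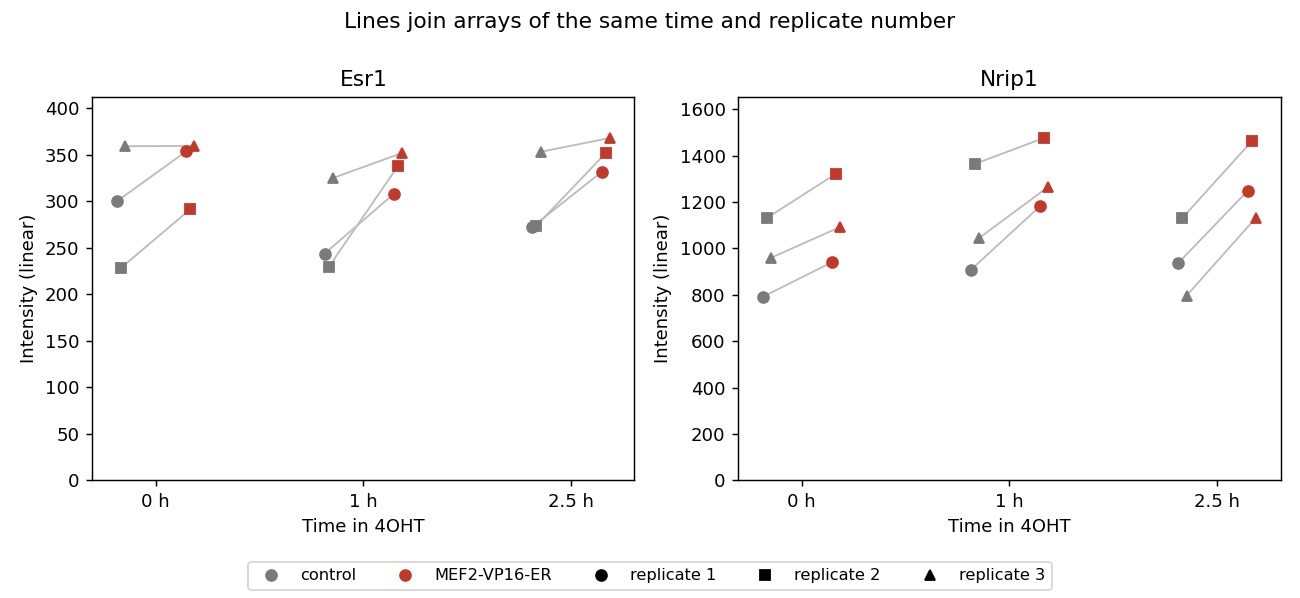
Intensity (linear axis from 0) of Esr1 (left) and Nrip1 (right) by hours of 4OHT, with colours for the construct, symbols for the replicate number and lines that join arrays of the same time and number. In all 9 pairs of each panel the MEF2-VP16-ER value is the higher. The line of Esr1 in replicate 3 at 0 h is nearly flat, from 358.9 to 359.3.

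Levels of other cell types' markers were set beside these construct differences. The summed intensity of 4 fibroblast and mural markers was 695 to 1109 over the 9 MEF2-VP16-ER arrays and 915 to 1321 over the 9 control arrays, and its part in the differences of Esr1 and Nrip1 was not tested. The summed intensity of 5 astrocyte markers was 29947 to 44619 with MEF2-VP16-ER and 30629 to 42775 in control neurons. That sum followed the replicate number, at 39282 to 44619 in replicate 1 and 29947 to 32623 in the others. Esr1, by contrast, was highest in replicate 3 (mean 353 ± 14.8, SD over its 6 arrays) and Nrip1 in replicate 2 (mean 1315 ± 153.1). Summed microglial markers were 726 to 880 with MEF2-VP16-ER and 721 to 973 in control neurons. At 2.5 h, where Nrip1 differed most, 3 summed lists had groups that did not overlap. With MEF2-VP16-ER the 3 excitatory neuron markers summed to 6966 to 8809, against 9324 to 11137 in control neurons. The 7 neuronal markers summed to 56658 to 57825 against 52966 to 54683, and the 3 oligodendrocyte markers to 688 to 773 against 782 to 793. All these sums add linear intensities, so the brightest gene of a list weighs most. Over the 18 arrays Neurod6 had a median of 7981, against 1425 for Slc17a7 and 1047 for Camk2a. Mbp had 604, against 109 for Mag and 74.2 for Mog. Dcn had 612, against 40.7 to 224 for the other fibroblast and mural markers. Directions of single markers are not given here. The part of these 3 lists in the difference of Nrip1 was not tested.

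The genes whose log2 values were most like those of a member were found over the 18 arrays, which share their replicate structure, and are given as a description. For Esr1 they were Mkln1 (Pearson r = 0.85), Ankrd13c (0.83) and Lrch3 (0.80), and after subtraction of replicate means Apbb2 (0.76), Mkln1 (0.76) and Ankrd13c (0.75). For Nrip1 they were Gucy1a1 (0.87), Ptpro (0.86) and Sh3rf3 (0.85), and after subtraction Rnd3 (0.90), Adcyap1 (0.90) and Pcdh20 (0.88). For Esrra they were Ing2 (0.77), Kcnq5 (0.76) and H1f10 (0.76), and after subtraction Efnb3 (0.84), Zbtb47 (0.80) and RT1-Ba (0.79). Esr1 and Nrip1 themselves had r = -0.01 over the 18 arrays and 0.39 after subtraction.

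The wider estrogen pathway was examined through 8 lists written from general knowledge, with 148 of 171 entries measured, or 145 genes once shared entries were counted once. The lists were written with earlier results of these data known, and each gene was represented by its brightest probe set. Counts of listed genes called, beside the share over all probe sets, are therefore a description and no test of the pathway. In control neurons none of the 145 changed at 1 h or at 2.5 h, by limma with or without the replicate block. At unadjusted p under 0.05 there were 3 at each time, or 2.07%, close to the 2.71% and 2.15% over all probe sets. The list medians at 2.5 h lay near that of all probe sets, -0.01. They were 0.00 for 27 coregulators, 0.01 for 11 receptor chaperones, 0.01 for 28 estrogen responsive genes, -0.01 for 17 estrogen responsive genes of the brain and 0.00 for 17 genes of estrogen synthesis and metabolism. The other 3 were 0.01 for 14 related and steroid receptors, 0.00 for 9 genes of the antiestrogen binding site and tamoxifen handling, and -0.00 for 25 targets of estrogen-related receptors.

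Among estrogen responsive genes the widest difference in control neurons was that of Fos, an early transcription factor gene induced by many stimuli, chosen after its values were seen. Fos measured 1502, 818 and 186 at 0 h and 2232, 1803 and 700 at 1 h (replicates 1, 2 and 3). Each 1 h array was above that of its number while the groups overlapped, and the difference of 1.17 ± 0.61 was not called with or without the block (limma adjusted p = 1.00). It was 1.84 ± 0.61 at 1 h in MEF2-VP16-ER neurons and 1.51 ± 0.43 over both constructs (limma adjusted p = 1.00 for both, without the block). With the block, an alternative here since these comparisons were not treated as paired, both passed (limma adjusted p = 0.0437 and 0.0218). The block called 4 of the 145 genes in MEF2-VP16-ER neurons at 1 h, against 0.187% of all probe sets. Over both constructs at 1 h it called 3, Cited2, Fos and Nr4a1, against 0.0773%. Greb1, an estrogen target of breast cancer cells that promotes their growth, was at -0.21 ± 0.08 at 1 h in control neurons (limma adjusted p = 1.00). Myc, a growth-promoting transcription factor gene, was at -0.41 ± 0.13 at 2.5 h (limma adjusted p = 1.00). It was at -0.44 ± 0.13 in MEF2-VP16-ER neurons (adjusted p = 0.222). The chemokine gene Cxcl12 was at -0.53 ± 0.22 at 2.5 h in control neurons. Over both constructs at 2.5 h, a mean of the 2 changes, limma called 2 of the 145 genes, Cited2 and Nr4a1, against 0.238% of all probe sets. These means were 0.63 and 0.61, against 1.41 and 1.17 in MEF2-VP16-ER neurons alone. The values in control neurons, given below, were not called, so neither gene shows a change shared by the constructs. With the replicate block 5 rose and 3 fell, against 0.921% called. Besides Cited2 and Nr4a1, Bdnf (0.43, limma adjusted p = 0.0201), Fabp3 (0.23, adjusted p = 0.0405) and Ppargc1a (0.24, adjusted p = 0.0262) rose. All 5 were also called with the block in the induction at 2.5 h, described below. Those that fell were Myc (-0.43, adjusted p = 0.0326, and 0.0875 without the block), Cxcl12 (-0.33, adjusted p = 0.00955) and the cyclin gene Ccnd1 (-0.37, adjusted p = 0.0295). The vasopressin gene Avp (-0.26 ± 0.11) and the retinoic acid receptor gene Rarb (0.25 ± 0.10) had the other unadjusted p under 0.05 at 1 h, and Pdk4, a kinase that restrains pyruvate oxidation and a target of estrogen-related receptors, was at -0.13 ± 0.05 at 2.5 h.

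In MEF2-VP16-ER neurons 5 of the 145 genes rose by 2.5 h and 0 fell, and 140 did not pass, where 0.789% of all probe sets were called. With the replicate block 9 rose and 2 fell, against 2.33% called. Of those that rose, the block newly called Bdnf (1.25, limma adjusted p = 1.63e-05), Nr3c1 (0.36, adjusted p = 0.00645), Penk (0.32, adjusted p = 0.0297) and Perm1 (0.25, adjusted p = 0.0450). The 2 that fell were Ccnd1 (-0.49, limma adjusted p = 0.0227) and the Ras-like gene Rerg (-0.38, adjusted p = 0.0137). Cited2, a transcriptional coregulator gene placed among the estrogen responsive genes, rose by 1.20 ± 0.14 at 1 h (limma adjusted p = 0.00356) and by 1.41 ± 0.14 at 2.5 h (adjusted p = 0.000121), while in control neurons it was at 0.02 and -0.16. The orphan receptor gene Nr4a1 rose by 1.01 ± 0.14 at 1 h (limma adjusted p = 0.00779). At 2.5 h it rose by 1.17 ± 0.14 (adjusted p = 0.000422), against 0.06 in control neurons. Of the coregulators, 2 of 27 rose: Ppargc1a, which encodes the mitochondrial coactivator PGC-1 alpha, by 0.58 ± 0.12 (adjusted p = 0.0340) and Nr0b1, an atypical nuclear receptor that represses others, by 0.34 ± 0.06 (adjusted p = 0.00663). Of the targets of estrogen-related receptors, 1 of 25 rose, the fatty acid binding protein gene Fabp3, by 0.49 ± 0.07 (adjusted p = 0.00226). With the replicate block 2 of 25 rose, Fabp3 and Perm1.

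The induction at 2.5 h, which subtracts the control change, was called for 2 of the 145 genes, Cited2 (1.56 ± 0.20, limma adjusted p = 0.00315) and Nr4a1 (1.11 ± 0.19, adjusted p = 0.0299), where 0.177% of all probe sets were called. With the replicate number as a block 7 rose and 0 fell, against 0.937% called, adding Ppargc1a (0.69, adjusted p = 0.00132), Nr0b1 (0.38, adjusted p = 0.0228), Fabp3 (0.51, adjusted p = 0.0208), Bdnf (1.63, adjusted p = 0.000131) and the glucocorticoid receptor gene Nr3c1 (0.43, adjusted p = 0.0441). Without the block these 5 had limma adjusted p between 0.0584 and 0.562. Among 11 chaperones of the receptor, 17 genes of estrogen synthesis and metabolism, and 9 genes of the antiestrogen binding site and tamoxifen handling, none was called in this comparison with or without the block. In the last of these Dhcr7 and Sc5d, enzymes of late cholesterol synthesis, were at -0.50 ± 0.32 and -0.56 ± 0.45.

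**Figure D4:**
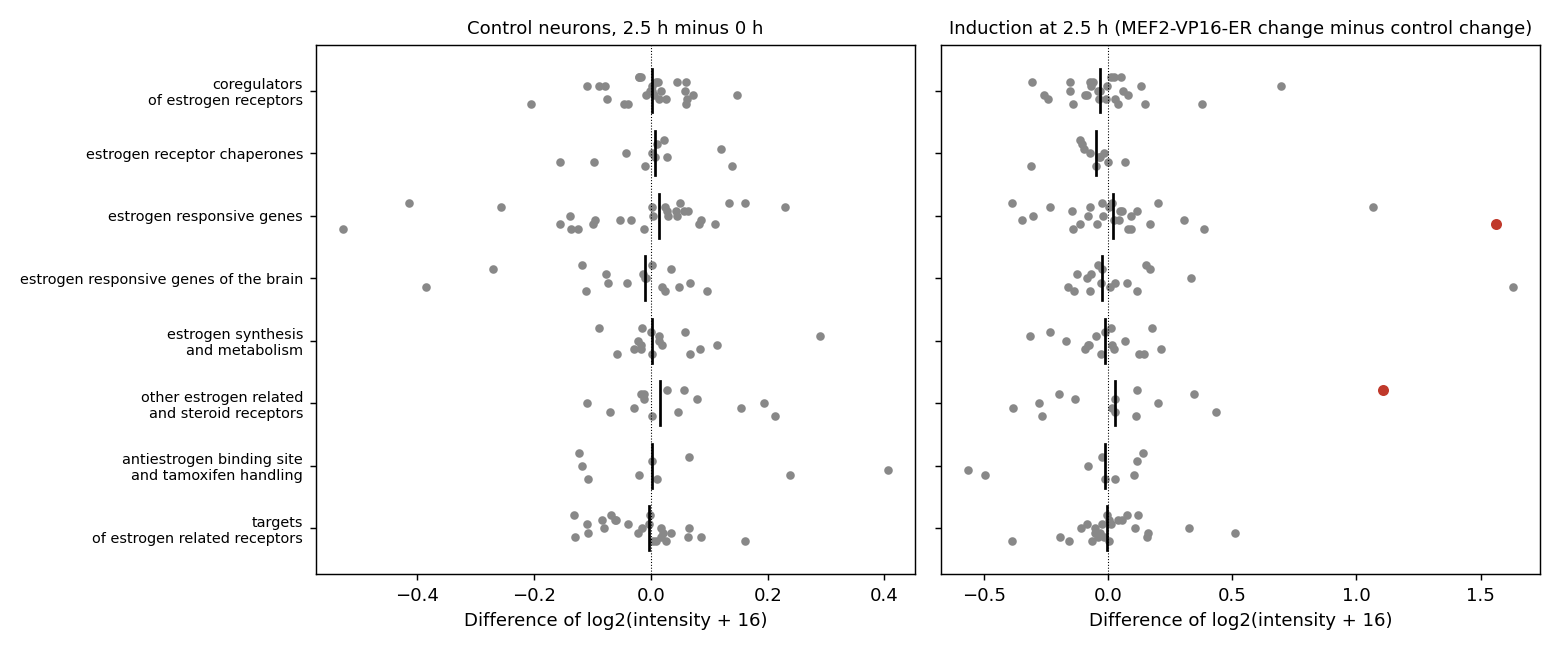
Differences of log2(intensity + 16) for the measured genes of 8 lists around the estrogen receptors, 1 point a gene and a bar at each list's median, in control neurons at 2.5 h (left) and in the induction at 2.5 h (right, on a wider axis). Red marks limma calls: none in control neurons, and Cited2 and Nr4a1 in the induction.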

How the data were processed

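RNA of 18 samples was measured on an Affymetrix rat array. The authors deposited 1 intensity per probe set and array on a linear scale; their normalization between arrays was not given in the sources used here, and no further scaling was applied. After removal of 57 control probe sets, 31042 were tested without a filter. Probe sets were named from the platform annotation of 2016 (20826 with 1 symbol, 436 with several, 9780 with none), and 20758 of the former were found in RefSeq. Groups came from the labels. All 18 arrays entered 1 limma fit (lmFit, eBayes) on log2(intensity + 16) with 6 group means and 12 residual degrees of freedom, and p-values were adjusted by Benjamini-Hochberg within each contrast.

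The members and lists were chosen with earlier results of these data known. Of 171 list entries 23 were not analysed here, and each listed gene was represented by its brightest probe set. Named from a list are members called in any of 10 contrasts and up to 4 others with the smallest p in control neurons or the inductions; likeness names the 3 genes of highest r for members above the median level. To see whether replicate numbers pair the arrays, residuals of same-numbered arrays were correlated, and 44 of 45 pairs were above 0.1. The exception was 0.068 (MEF2-VP16-ER 0 h and 1 h, replicate 2), so comparisons holding both these groups were not treated as paired. In the others the blocked value is given where it changes a call, except for listed genes compared between constructs, which are not described here. It is also given for the construct difference over all times, and for Nrip1 and listed genes at 1 h. Further blocked values are those of Nrip1 at 2.5 h in MEF2-VP16-ER neurons and the Esr1 interval at 2.5 h in control neurons. Alternatives were other pseudocounts, scalings, filters, eBayes settings, the block and left-out arrays. The fit was tested on simulated data with known changes. The number of arrays limits the precision. R 4.3.3 with limma 3.58.1 did the fits, and Python 3.11.15 with pandas 2.3.3 and matplotlib 3.10.9 the rest.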

Additional observations from a re-analysis of the deposited data

How the results depend on the processing

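Without the replicate number as a block, no alternative called any of the 8 probe sets in any of 12 contrasts: of 1840 differences 1688 kept their direction and 152 changed sign while uncalled. With the block as well, no called difference changed sign. With that block, the mean difference between constructs over all times, not treated as paired, passed for 2 of 8, Esr1 (0.24 ± 0.06, limma adjusted p = 0.0245) and Nrip1 (0.30 ± 0.05, adjusted p = 0.00233). The count stayed 2 when the block was joined with quantile normalization, median centring, a pseudocount of 1 or 64, or trend and robust, and was 1 to 2 with single arrays and 0 to 1 with a replicate number left out. With the block Esr1 kept the call in 13 of 18 fits without 1 array (adjusted p = 0.0198 to 0.0602) and in 0 of 3 without a replicate number (0.0538 to 0.236), and Nrip1 in 18 of 18 and 2 of 3 (0.0106 to 0.0658). At 2.5 h alone the block called 1 of 8, Nrip1, also with these scalings, in 5 of 6 fits without 1 array and in 1 of 3 without a replicate number. Pooled over constructs, Nrip1 at 1 h had a limma adjusted p = 0.890 with the block. The block changed no other member's call. Over all probe sets the block raised the counts of calls from 223 to 1189 over all times, from 397 to 1083 between constructs at 2.5 h, from 245 to 724 in MEF2-VP16-ER neurons at 2.5 h, from 55 to 291 for the induction at 2.5 h, from 74 to 286 at 2.5 h over both constructs, from 19 to 79 between constructs at 1 h, from 11 to 58 in MEF2-VP16-ER neurons at 1 h, from 0 to 24 at 1 h over both constructs, from 1 to 9 for the induction at 1 h and from 0 to 1 between constructs at 0 h. In control neurons it was 0 and 0 at 1 h and 0 and 1 at 2.5 h. With only the groups of the contrast in the fit these were 74 between constructs at 2.5 h, 75 in MEF2-VP16-ER neurons, 32 for the induction and 48 over both constructs at 2.5 h, and 0, 4, 0 and 1 for the same comparisons at 1 h. Low signal limits Esr2, Pgr and Gper1, and Nr0b1 among the listed genes, where the log scale compresses changes.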
